A study of Homo sapiens with 23 samples.

Results

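The 4 human HOX gene clusters were examined in the ChIP-seq peak lists of a study of LSD1 isoforms in SH-SY5Y cells, an established human neuroblastoma line. Members are all listed peaks that overlap 4 fixed windows of the hg19 genome: HOXA on chromosome 7 (27.1 to 27.26 Mb), HOXB on chromosome 17 (46.6 to 46.82 Mb), HOXC on chromosome 12 (54.32 to 54.46 Mb) and HOXD on chromosome 2 (176.94 to 177.06 Mb). The windows span 640 kb and are defined by position, but they were chosen with earlier results of these data known. They held 24 of the 52708 peaks in 5 lists. Of these, 14 came from LSD1 in control cells at day 0, 4 from LSD1 in control cells at day 3, 5 from LSD1 in knockdown cells at day 0, none from LSD1+8a at day 3 and 1 from SVIL at day 3.

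HOX genes encode homeodomain transcription factors that give cells positional identity along the body axis, and in the nervous system they pattern the hindbrain and spinal cord. Within a cluster the genes share an orientation and are ordered by paralogue number, from the low-numbered, anteriorly expressed genes to the high-numbered, posteriorly expressed ones. Low-numbered HOX genes are classical targets of retinoic acid, and silent HOX clusters are classical domains of Polycomb repression. LSD1 (KDM1A) is a histone lysine demethylase that works with corepressor partners, LSD1+8a is its neuronal splice isoform. Supervillin (SVIL) binds actin and is named in the series design as the isoform's cofactor.

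Per the labels' protocols, cells were kept in retinoic acid at 10 µM for 4 days, followed by 3 days in serum-free medium with BDNF, a neurotrophin, at 50 ng/mL, and the days named here count the time in BDNF. The 5 lists came from cells with a control shRNA at BDNF day 0 (LSD1) or day 3 (LSD1, LSD1+8a and SVIL), and from cells with an shRNA against LSD1+8a at BDNF day 0 (LSD1). All groups share the same line, so nothing here speaks to other neuroblastomas or to neurons. Each group is 1 library, and no difference between lists has a replicate check or a test. Intervals are exact 95% intervals (Poisson for counts, Clopper-Pearson for shares) and cover counting error only. For LSD1 the lists held 16882 peaks in control cells at day 0, 20748 at day 3 and 10248 in knockdown cells, and there were 3378 for LSD1+8a and 1452 for SVIL. Read depth and the input behind each list are unknown here, so fewer peaks and a shallower library cannot be told apart.

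HOX promoters are known for dense CpG dinucleotides. The sequences below are from HOXA, the cluster with no peak, and HOXD, the cluster with most peaks. They are the 2 promoters with most CpGs in each of these clusters among those in the RefSeq table, which covered 20 of the 38 HOX genes with 27 start sites (9 of 10 HOXA and 8 of 9 HOXD genes). Each line gives the 250 bases before the start site, 5′ to 3′ on the gene's strand, with CpGs in capitals.
HOXA13 (GRCh38.p14 chr7:27200092-27200341, minus strand): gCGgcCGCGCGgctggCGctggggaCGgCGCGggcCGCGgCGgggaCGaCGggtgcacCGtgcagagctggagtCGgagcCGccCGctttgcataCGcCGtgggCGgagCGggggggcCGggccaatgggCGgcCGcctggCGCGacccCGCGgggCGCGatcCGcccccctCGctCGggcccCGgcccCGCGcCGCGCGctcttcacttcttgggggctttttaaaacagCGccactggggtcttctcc
HOXA7 (GRCh38.p14 chr7:27156676-27156925, minus strand): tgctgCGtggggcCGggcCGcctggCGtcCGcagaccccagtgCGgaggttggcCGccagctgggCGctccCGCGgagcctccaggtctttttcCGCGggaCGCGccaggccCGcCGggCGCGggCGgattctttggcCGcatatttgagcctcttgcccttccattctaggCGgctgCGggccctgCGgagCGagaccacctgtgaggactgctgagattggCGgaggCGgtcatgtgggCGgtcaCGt
HOXD1 (GRCh38.p14 chr2:176188418-176188667, plus strand): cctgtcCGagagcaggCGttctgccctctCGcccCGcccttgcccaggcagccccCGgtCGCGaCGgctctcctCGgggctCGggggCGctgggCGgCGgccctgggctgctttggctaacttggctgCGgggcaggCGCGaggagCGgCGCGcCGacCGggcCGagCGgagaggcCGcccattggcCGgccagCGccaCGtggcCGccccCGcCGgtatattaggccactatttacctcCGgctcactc
HOXD8 (GRCh38.p14 chr2:176129455-176129704, plus strand): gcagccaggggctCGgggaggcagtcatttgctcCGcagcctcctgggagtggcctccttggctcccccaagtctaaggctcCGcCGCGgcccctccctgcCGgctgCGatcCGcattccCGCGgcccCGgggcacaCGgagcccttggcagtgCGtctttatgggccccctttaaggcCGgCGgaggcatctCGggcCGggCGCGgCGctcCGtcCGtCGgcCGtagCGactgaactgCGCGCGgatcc
These promoters held 40, 28, 31 and 28 CpGs in the order shown. The build differs from that of the peak lists, so their positions cannot be set against the peaks, and no peak is assigned to a gene here.

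Over all matched start sites, CpG counts per 250 bases ran from 0 to 40 with a median of 19 in HOXA (16 start sites) and from 4 to 31 with a median of 22 in HOXD (8 start sites). The median over all 35116 promoters of the table was 11. Above that median lay 62.5% of the HOXA and 87.5% of the HOXD start sites, against 48.51% of all. The ranges of the 2 clusters overlapped, and 7 of the 16 HOXA sites belong to 1 gene, HOXA3, an anterior gene. Whether CpG count relates to the peaks was not tested. The nuclear receptor half-site AGGTCA, searched as AGGTCA and TGACCT so as to cover both strands, was found in 0 of the 27 HOX sequences and in 12.08% of all, which says only that these letters are not in these windows of 250 bases.

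**Figure D1:**
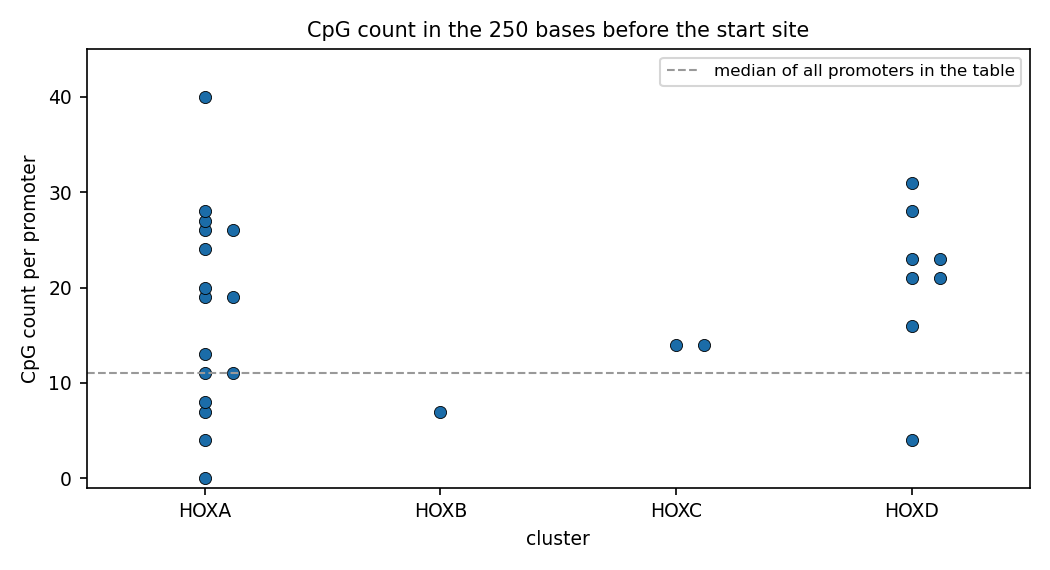
CpG dinucleotides in the 250 bases before each RefSeq start site (vertical axis, count) by cluster (horizontal axis); each point is 1 start site, points with equal counts are set side by side, and the dashed line is the median of all promoters, 11. HOXA spans 0 to 40 and HOXD 4 to 31. Whether CpG count relates to the peaks was not tested.

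HOXA carried no peak in any list. The 200 kb on each side were empty too, so that no base of a 560 kb stretch lay in a peak of LSD1, LSD1+8a or SVIL. The nearest peaks of any list ended 244.3 kb below the window and began 233.3 kb above it, which left 637.6 kb without a peak between chr7:26855658 and chr7:27493253. Of 32164 gaps between merged peak regions on the same chromosome, 485 (1.508%) were at least as long, against a median gap of 37.73 kb. Such gaps made up 23.53% of the length spanned, unsequenced stretches included, so an empty cluster is not rare. Of all windows of the same length, 62% held at least 1 peak of some list, 45.3% at least 1 LSD1 peak of control cells at day 0, 50.7% at day 3, 33% in knockdown cells, 14.6% an LSD1+8a peak and 6.53% a SVIL peak. The window holds HOXA2 to HOXA13, from hindbrain-patterning genes at its low-coordinate side to limb and genital-tract genes at its high-coordinate side.

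**Figure D2:**
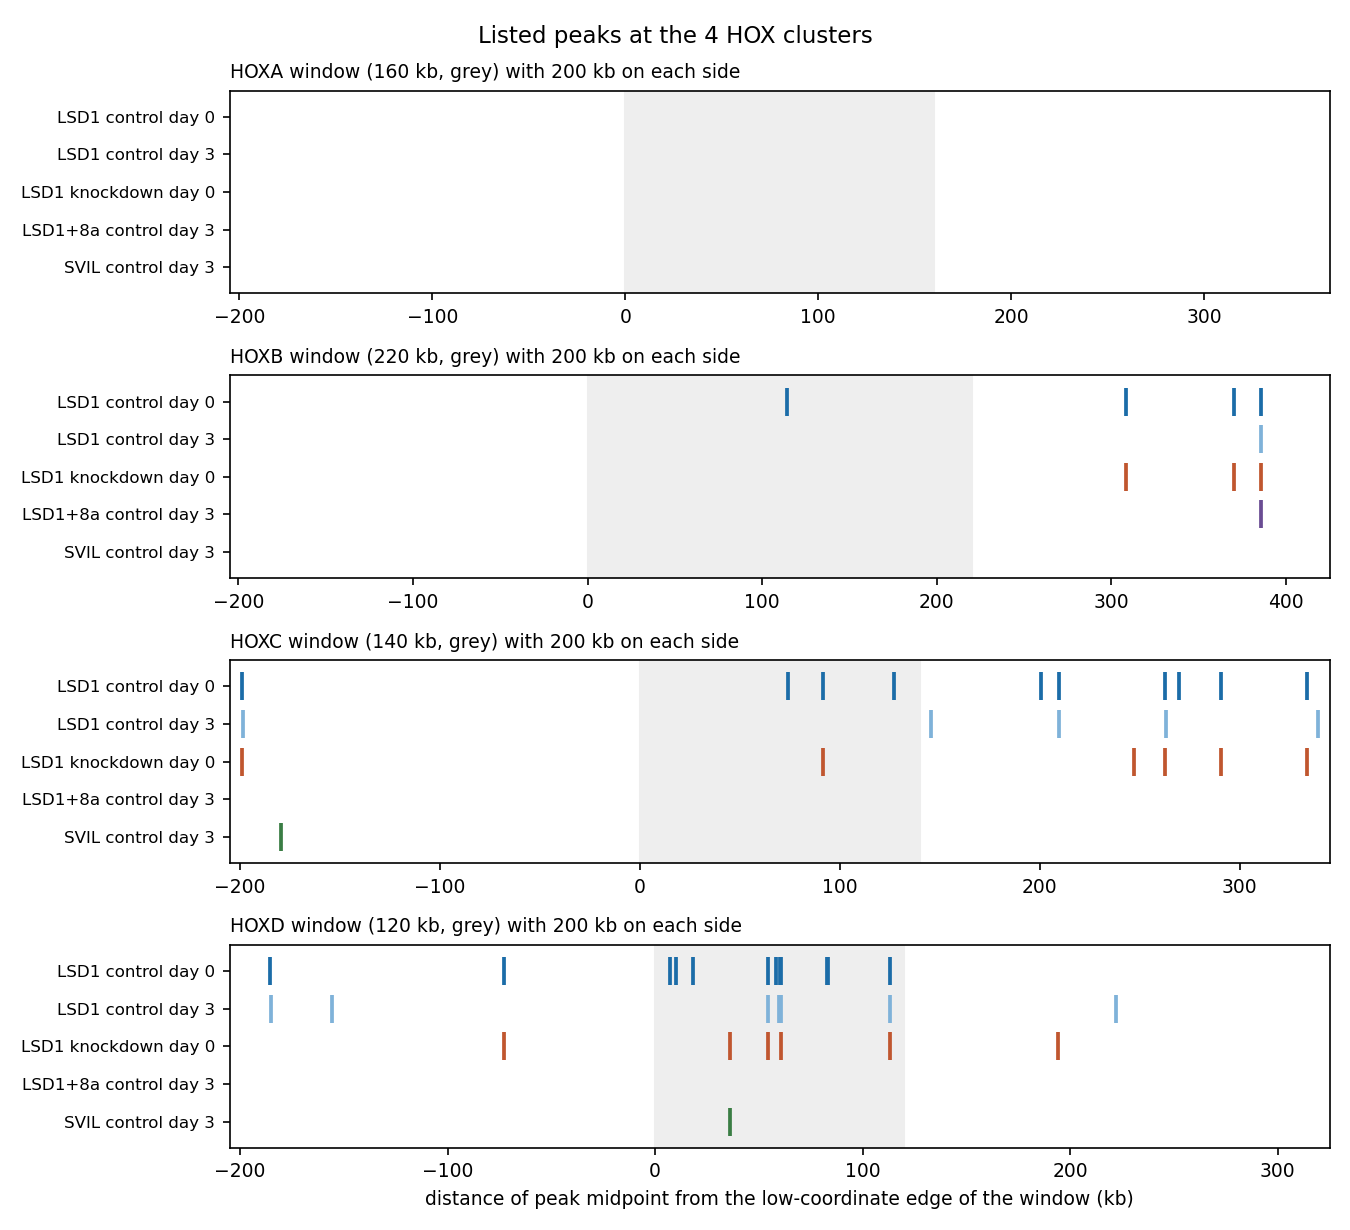
Listed peaks at the 4 clusters; the horizontal axis is the distance of each peak's midpoint from the low-coordinate edge of the window in kb, each row is 1 list, each tick 1 peak, and grey marks the window. HOXA and its flanks are empty, and the HOXD window holds 10 LSD1 peaks of control cells at day 0 against 2 in its flanks.

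HOXB carried a single peak over all lists, where 68.4% of all windows of 220 kb held at least 1. It was an LSD1 peak of control cells at day 0 (chr17:46713920-46714347), near the middle of the window at 114.05 kb from its low-coordinate edge. The peak had 10 tags (reads in the peak), a fold enrichment of 11.18 by the authors' caller and a score at the 19.86th percentile of its list. At least 1 peak of that list lay in 52.7% of all windows of 220 kb, so this count stands near the background. In the other LSD1 lists, where HOXB held no peak, 58.3% of such windows held one at day 3 and 40.2% in knockdown cells. For LSD1+8a the share was 19% and for SVIL 8.67%. By coordinate the genes run from HOXB1, a hindbrain gene, to HOXB13, a posterior gene. No list had a peak within 414.4 kb below the HOXB1 side. On the HOXB13 side, the nearest LSD1 peaks began 87.99 kb away in control and 87.98 kb away in knockdown cells at day 0, and 165.2 kb away at day 3.

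HOXC carried 4 peaks, all for LSD1 at day 0. Control cells had 3 (0.619 to 8.77), or 2.14 per 100 kb against 1.75 in the flanks, and 8.69% of all windows of 140 kb held at least 3. Knockdown cells had 1, and 30.3% of windows held at least 1. At day 3, LSD1 had none in the window, where 47.5% of windows had at least 1. LSD1+8a and SVIL had none either (13% and 5.77% of windows). The nearest day 3 LSD1 peak (chr12:54464820-54466359, 66 tags) lay 4.82 kb beyond the high-coordinate edge, on the HOXC4 side, and is counted as flank. Shifting this edge by 5 kb would thus change the day 3 count from 0 to 1.

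The widest HOXC region, chr12:54410957-54412440, was found in control and knockdown cells at day 0. In control cells its peak had 53 tags, the most of any HOX peak of that list, and a fold of 7.99. In knockdown cells it had 35 tags and a fold of 7.48, and its score of 121 was the highest of the 5 HOX peaks there. The 2 summits lay 712 bp apart within an overlap of 1146 bp, so both lists cover the stretch but place its maximum differently. The other HOXC peaks were in control cells only, at chr12:54393505-54394389 (21 tags, fold 9.1) and chr12:54446703-54447335 (18 tags, fold 5.81). All 4 HOXC peaks lay in the upper-coordinate part of the window, from 73.84 to 126.97 kb of its 140 kb. By coordinate the genes run from HOXC13, a gene known for hair and nail formation, to HOXC4, the lowest-numbered gene of the cluster.

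HOXD held most of the peaks, 19 of 24, and 0.197% of all windows of 120 kb held at least 19 peaks over the 5 lists. LSD1 in control cells at day 0 had 10 (4.80 to 18.4), or 8.33 per 100 kb (3.996 to 15.3), against 0.5 (0.0606 to 1.81) in the flanks and 0.555 over its whole list. Of 25333 windows of 120 kb, 12 (0.0474%) held at least 10 peaks of that list. Neither these windows nor the flanks were matched to HOXD for gene or CpG density. At day 3 LSD1 had 4 (1.09 to 10.2), or 3.33 per 100 kb, against 0.75 in the flanks, and 4.46% of windows held at least 4. In knockdown cells at day 0 LSD1 had 4 as well, against 0.5 per 100 kb in the flanks, and 1.19% of windows held at least 4. The intervals of the LSD1 count in control cells at day 0 and of the other LSD1 counts overlap. SVIL had 1 peak, where 5.03% of windows held at least 1, and LSD1+8a had none, where 11.5% held at least 1.

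**Figure D3:**
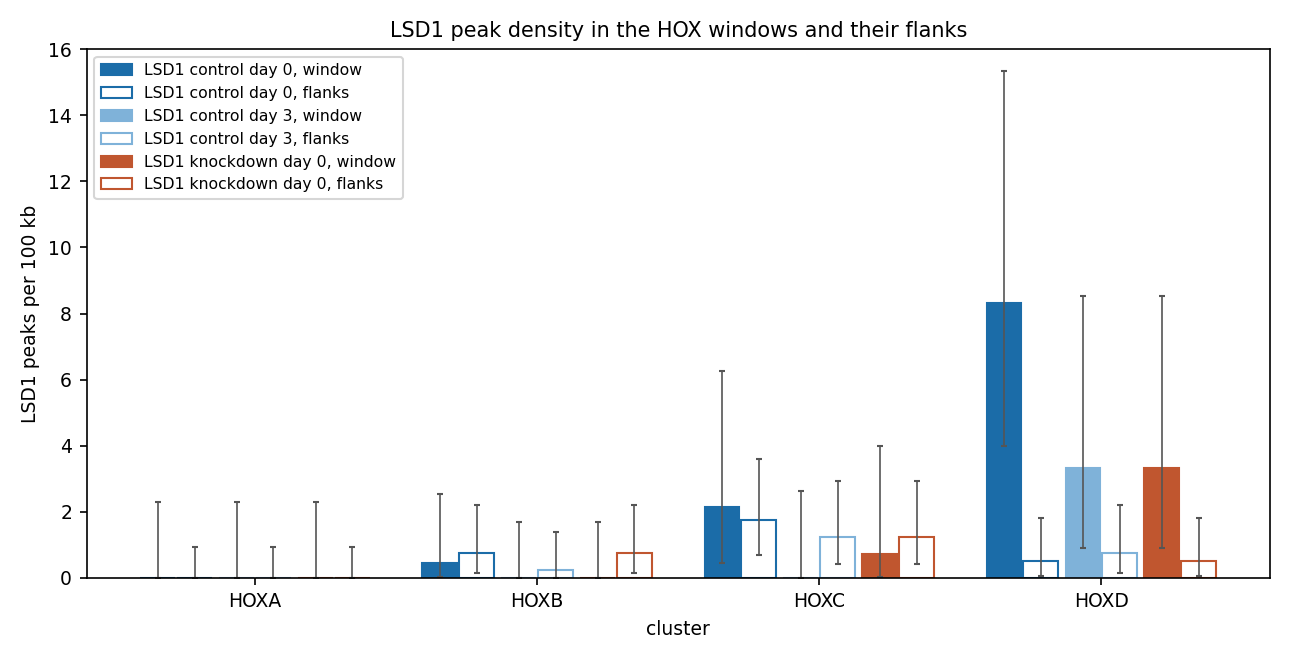
LSD1 peaks per 100 kb (vertical axis) in each HOX window (filled bars) and in its 400 kb of flanks (open bars), by cluster and list; error bars are exact 95% Poisson intervals. In HOXD the filled bars reach 8.33, 3.33 and 3.33 while the open bars stay at or below 0.75.

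Over the 4 windows together, LSD1 in control cells at day 0 had 2.19 peaks per 100 kb against 0.75 in the flanks, a ratio of 2.92 (exact 95% interval from the peak counts, 1.25 to 6.90). At day 3 the densities were 0.625 and 0.563, a ratio of 1.11 (0.25 to 3.98), and in knockdown cells 0.781 and 0.625, a ratio of 1.25 (0.335 to 4.01). These intervals treat peaks as independent, although adjoining peaks are counted separately and 10 of the 14 control day 0 peaks lie in HOXD. They are therefore not read as a test of any ratio against 1. In control cells at day 0 the excess came mainly from HOXD. The ratio was 16.67 in HOXD, 1.224 in HOXC and 0.6061 in HOXB, and HOXA had no peak in window or flanks. For HOXD the ratio to the flanks was 4.444 at day 3 and 6.667 in knockdown cells. Set against the density of each whole list, the 4 windows together had ratios of 3.941 in control cells at day 0, 0.9162 at day 3 and 2.319 in knockdown cells. The control day 0 excess over the flanks also rests on low-scoring peaks. With the upper 50% of the control day 0 list by score, the windows held 4 peaks and the flanks 8, a ratio of 1.25. The 3 intervals overlap, and the ratios were not tested against each other.

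In control cells at day 0 the HOXD density rests largely on low-scoring peaks. Of the 10 control peaks at day 0, 7 had a score under the list median of 80.5, 5 had a score under 60 where the list begins at 50, and 3 lay in its lowest score decile. Over the list, 22.24% of peaks scored under 60. At day 3, 3 of the 4 HOXD peaks scored under their list median of 91.86. In knockdown cells 2 of the 4 did, and their median score was 88.22 against 80.19 for the list. With the upper 50% of each list by score, HOXD kept 3 control peaks at day 0 (1.96% of windows held at least as many), 1 at day 3 (27.6%) and 2 in knockdown cells (3.39%). No HOX peak of any list was in the highest score decile of its list.

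The HOXD peaks merged into 10 regions, ordered here from the HOXD13 side, at low coordinates, to the HOXD1 side. HOXD13 is a limb and digit gene, and HOXD1 and HOXD3 are anterior genes. The first 3 regions, at the HOXD13 side, held peaks of the control day 0 LSD1 list alone. They were chr2:176946819-176947397 with 19 tags and a fold of 15.7, chr2:176949850-176950277 with 10 tags and a fold of 9.17, and chr2:176957941-176958536 with 13 tags and a fold of 6.76. The first stood at the 72.95th percentile of its list by score, while the others stood at the 1.77th and 2.11th, just above the lowest score listed. Without the outer 20 kb of each window, which removes these 3 and 2 more, the list kept 9 of its 14 HOX peaks.

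The fourth region was the only HOX site of SVIL. The SVIL peak at day 3 (chr2:176976031-176976269) had 16 tags, a fold of 23.8 and a score at the 49.52nd percentile. It lay entirely inside an LSD1 peak of knockdown cells at day 0 (chr2:176975913-176976420), which had 14 tags, a fold of 12.77 and a score at the 39.36th percentile. Their summits were 20 bp apart. Neither LSD1 list of control cells had a peak there, and no LSD1+8a peak was listed. Over the whole lists, 33.1% of SVIL peaks overlapped an LSD1 peak of knockdown cells, 58.7% a day 3 LSD1 peak and 18.6% an LSD1+8a peak. Of the LSD1 peaks of knockdown cells, 4.57% overlapped a SVIL peak. The pairing sets day 3 control cells against day 0 knockdown cells, and with 1 region there is no share to compare.

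Near the middle of HOXD, 3 regions lay within 7.26 kb. The first, chr2:176993915-176994857, was listed for LSD1 in all 3 lists, with 28 tags (fold 15.99) in control cells at day 0, 31 (fold 19.67) at day 3 and 29 (fold 13.17) in knockdown cells. The day 0 control score of 142 was the highest of the HOX peaks of its list. The 3 summits lay 2 to 59 bp apart, the closest of the 3 HOX regions found in all LSD1 lists. The next, chr2:176997665-176998519, was a control day 0 peak alone with 21 tags and the lowest fold of the HOX peaks, 5.6. The last, chr2:176999420-177001176, held 2 adjoining peaks in both control lists. The lower one had 23 tags at day 0 and 55 at day 3, and the upper one 17 and 29. The knockdown list had 1 peak, with 24 tags, whose summit was 144 bp from the upper day 0 summit and which touched the lower day 0 peak by only 19 bp. The lower day 3 peak scored 126, the highest HOX score of that list.

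Further toward HOXD1, LSD1 in control cells at day 0 had 2 adjoining peaks, chr2:177022280-177022939 with 16 tags and chr2:177022942-177023623 with 19 tags. No other list had a peak there. The last region, chr2:177052263-177053957, lies within 10 kb of the high-coordinate edge and was in all 3 LSD1 lists. Its peak had 31 tags (fold 7.11) at day 0, 58 (fold 8.84) at day 3 and 23 (fold 10.04) in knockdown cells. Its summits were spread over 588 bp, from 177052886 at day 3 to 177053474 in knockdown cells. Tags are not scaled for depth, and the median tags per peak of the whole lists were 26 at day 0, 50 at day 3 and 28 in knockdown cells, so the higher day 3 numbers are not read as stronger binding.

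**Figure D4:**
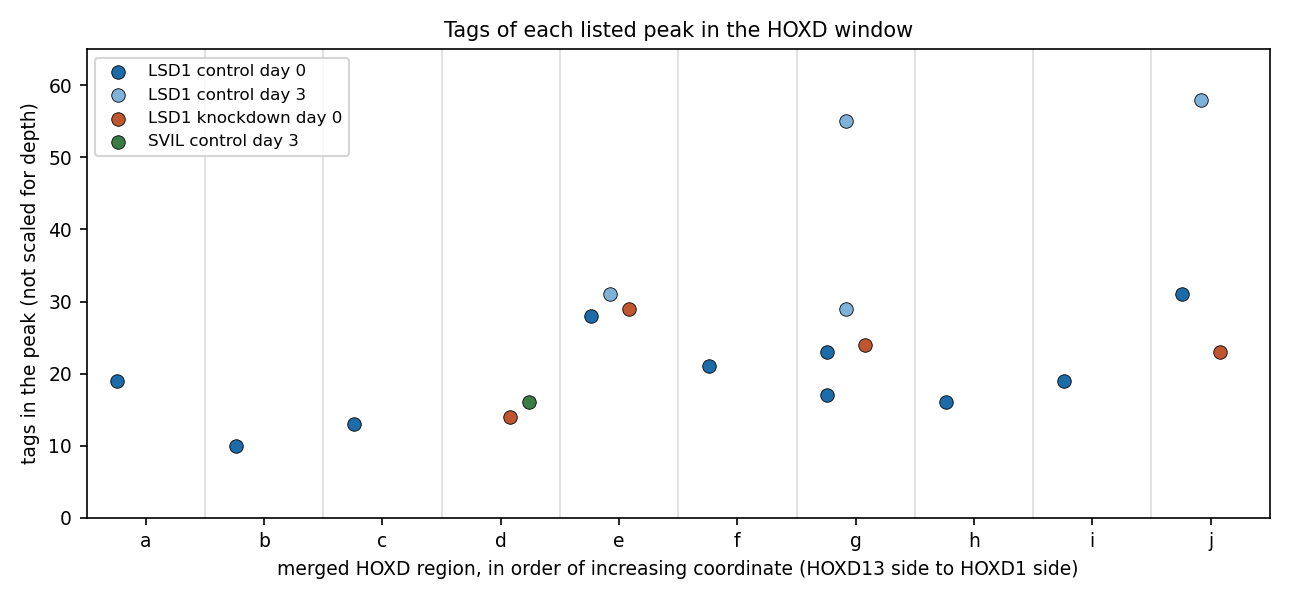
Tags per listed peak (vertical axis, not scaled for depth) in the 10 merged HOXD regions, lettered a to j by increasing coordinate from the HOXD13 side; colours give the list and each point is 1 peak. Regions e, g and j carry points of all 3 LSD1 lists, region d carries the SVIL point at 16 tags beside a knockdown LSD1 point at 14, and the other 6 regions carry control day 0 points alone.

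At HOX clusters the control LSD1 lists held 14 peaks at day 0 and 4 at day 3, a difference that was not tested. Of the 14 control peaks at day 0, 4 (28.6%, 8.39 to 58.1) overlapped a day 3 peak, against 50.1% over the whole list and 5 of 12 in the flanks. All 4 day 3 HOX peaks (39.8 to 100%) overlapped a day 0 peak, against 40.1% over the whole list and 5 of 9 in the flanks. Both intervals are wide and include the whole-list share. The 4 shared day 0 peaks had 17 to 31 tags and a median score of 85.55, and the 10 others had 10 to 53 tags and a median score of 58.3. All 4 day 3 peaks lay in HOXD. The overlaps rest on peaks of low score in at least 1 of the lists: with the upper 50% of each list, 0 of 4 day 0 peaks and 0 of 1 day 3 peaks were shared.

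Between control and knockdown cells at day 0, 5 of 14 control peaks (35.7%, 12.8 to 64.9) overlapped a knockdown peak, against 42.1% over the whole list and 8 of 12 (66.7%) in the flanks. Of the 5 knockdown HOX peaks, 4 (80%, 28.4 to 99.5) overlapped a control peak, against 69.4% over the whole list and 8 of 10 in the flanks. Both intervals include the whole-list share, and the flank share of control peaks lies just above the first interval. The 5 shared control peaks had a median of 28 tags and the 9 others a median of 18. The knockdown peak with no control overlap was the one at the SVIL site. The 9 control peaks missing from the knockdown list were also missing from the day 3 list. The share of the whole control list missing from both was not counted, so this has no background either. Between the knockdown list and day 3, 3 of 5 knockdown peaks overlapped a day 3 peak, against 45.5% over that list.

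Merging all lists gave 14 HOX regions, of which 9 were in 1 list, 2 in 2 lists and 3 in 3 lists. Over the genome 57.62% of 32188 regions were in 1 list, 26.65% in 2 and 11.78% in 3. The 9 single-list regions were all control day 0 LSD1 peaks, and the 3 regions in 3 lists were all in HOXD. Which list the single-list regions of the whole genome came from was not counted, so the first of these has no background share. LSD1+8a, with 3378 peaks in all, was listed at no HOX cluster, and its only peak in the flanks (chr17:46985130-46986051, 41 tags) lay 165.1 kb beyond the HOXB13 side. There it overlapped LSD1 peaks of all 3 lists. Over its whole list, 59.6% of LSD1+8a peaks overlapped a day 3 LSD1 peak.

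**Figure D5:**
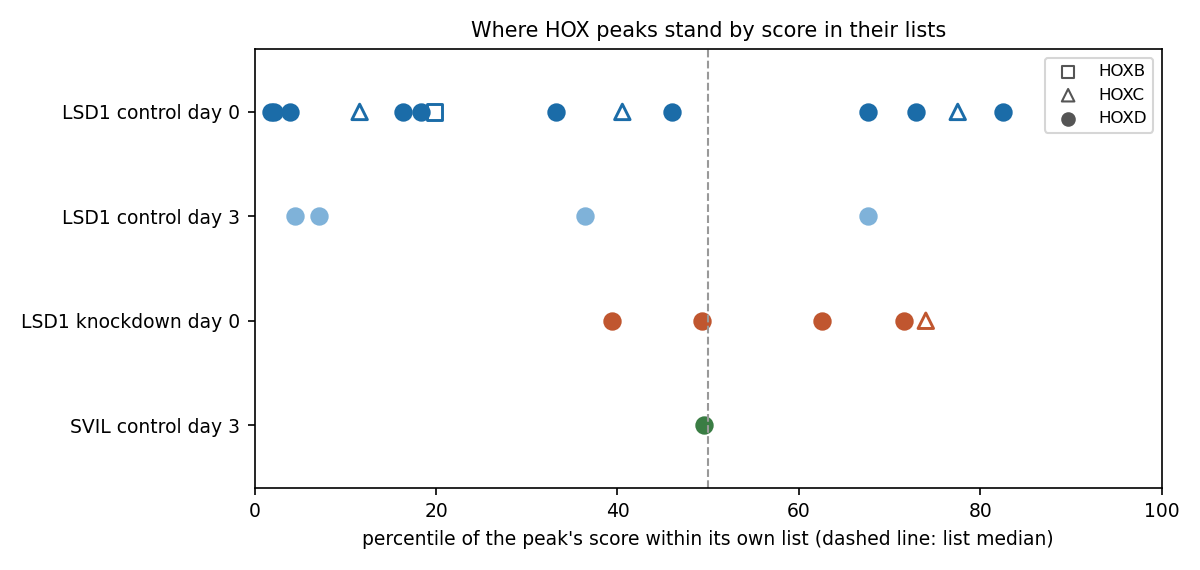
Percentile of each HOX peak's score within its own list (horizontal axis, 0 to 100; dashed line at the list median) for the 4 lists that hold HOX peaks; symbols give the cluster. Of the 14 control day 0 peaks 10 lie left of the median, of the 4 day 3 peaks 3, and of the 5 knockdown peaks 2.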

How the data were processed

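Peak lists of 5 ChIP samples out of 23 samples were used, 1 list per library, so peaks were called per sample. The submitters' processing notes list CASAVA, Bowtie 1.0.0 and the builds hg19 and mm9, per the labels. The peak positions were read as hg19, since peaks on chromosome 1 reach 249200951, past the last gene of GRCh38.p14 at 248937099. Which caller, threshold and inputs were used is not stated in the labels or headers. The deposited tags are whole-number counts per peak with no scaling. The deposited fold enrichment is a ratio from the authors' caller. The deposited score has no readable column name and is used only to rank and filter peaks within a list. Length and summit offset are as deposited per the file headers, and summits are start plus offset.

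A peak was a member when any base overlapped a window, and shared when at least 1 bp overlapped a peak of the other list. Flanks are the 200 kb on each side. Background windows of each cluster's length were tiled from the first base to the last peak of each chromosome, unsequenced stretches included. They were not matched for gene or CpG density. Genes were ordered by the RefSeq table of GRCh38.p14, where 38 of 38 HOX genes matched, and promoters are from its sequence table. Overlapping promoters on opposite strands were reverse complements in 3093 of 3093 cases, which checked their orientation. All HOX peaks are counted, and the text gives in full the regions in most lists and the peaks with highest score or most tags. The members, windows and lists were chosen with earlier results of these data known. Alternatives were summits in the window, windows narrowed by 20 kb, flanks of 100 kb, an overlap of 50% of both peaks, peak edges within 1 kb, the upper 50% by score, equal numbers of top-scoring peaks and tiling offset by 50% of a window. The upper 50% for tiled windows and merging within 1 kb were added after the data were seen. Overlap and tiling functions were tested on simulated data. Python 3.11.15, numpy 2.4.6, pandas 2.3.3, scipy 1.17.1 and matplotlib 3.10.9 were used.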

Additional observations from a re-analysis of the deposited data

How the results depend on the processing

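Of 74 alternative values, 57 stayed within the interval of the value reported (for a count, within 1.5 times). This tally includes values with little or no room to move. The LSD1+8a count of 0 could not change under these settings, and the SVIL shares of 0 of 1 had an interval of 0 to 97.5%. Most of the values that moved used stronger peaks. With the upper 50% by score, HOX counts were 4 for LSD1 in control cells at day 0, 1 at day 3, 3 in knockdown cells and 0 for SVIL, and the density in the windows over that in the flanks, 2.917 as reported for LSD1 in control cells at day 0, was 1.25. In HOXD the share of windows with at least as many peaks was then 1.96%, 27.6% and 3.39% for these LSD1 lists. Shared HOX peaks were then 0% of 4 (day 0 at day 3), 0% of 1 (day 3 at day 0), 75% of 4 (control at knockdown) and 100% of 3 (knockdown at control). With the 1452 top-scoring peaks of each list, all 3 LSD1 lists had 0 HOX peaks, so no share was computed for them. Narrowed windows left 9 control peaks at day 0, and offset tiling gave 0.975% for HOXD in knockdown cells. Merging within 1 kb left 12 control peaks at day 0, with 8 in HOXD and 0.0789% of windows holding at least as many. No paired analysis was possible because each group is 1 library. Depth per library is unknown, and a site with no listed peak may hold signal under the score threshold.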

Other observations

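Some peaks at the outer edges of the flanks are given here, chosen after their values were seen. At the HOXC13 side of HOXC, 197.9 to 198.1 kb below the window, all 3 LSD1 lists had a peak, with 98 tags (fold 33.82) in control cells at day 0, 154 (fold 33.74) at day 3 and 100 (fold 17.01) in knockdown cells. On the HOXC4 side, about 193 kb above the window, LSD1 had 42 tags in control cells at day 0 (chr12:54652914-54653892) and 44 in knockdown cells, and no day 3 peak overlapped them. At the HOXD13 side of HOXD, 184.1 to 184.8 kb below the window, LSD1 had 40 tags at day 0 (chr2:176753853-176755210) and 167 at day 3 (chr2:176753817-176755881), and the knockdown list had none there. Tags are not scaled for depth (list medians 26, 50 and 28), so they are not read as a change in binding. Over whole lists, 50.1% of control day 0 LSD1 peaks overlapped a day 3 peak and 42.1% a knockdown peak. Of day 3 LSD1 peaks, 22.2% overlapped a knockdown peak. The only SVIL peak in the flanks, on chr12:54140459-54140714 with 16 tags, overlapped no peak of LSD1 or LSD1+8a at day 3. Over the SVIL list the overlapping shares were 58.7% and 18.6%.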
